A study of Gallus gallus with 25 samples.

Results

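The miR-181 family was followed in embryonic chicken gonads with 3 array probes, gga-miR-181a, gga-miR-181b and dre-miR-181c, the last carrying a zebrafish name. They were picked by probe name among the 657 perfect-match mature miRNA probes of a one-colour array. Mismatch partners, control probes and hairpin tiling probes were left out. The study compared the gonads of male and female embryos at embryonic days (E) 5.5, 6.5 and 9.5, which are Hamburger and Hamilton stages 27 to 28, 29 to 30 and 35 to 36. The groups were Male E5.5 (5 arrays), Female E5.5 (4), Male E6.5 (5), Female E6.5 (3), Male E9.5 (4) and Female E9.5 (4). The labels record no treatment and no genetic change in any group. Gonads were pooled by sex before small RNA was extracted, so an array stands for a pool and not for an embryo. Of the 25 arrays, 18 were on a chip numbered 4011845 and are described first, and the other 7, with no E9.5 array among them, were on chip 50636. On chip 4011845 the groups held 3, 3, 3, 1, 4 and 4 arrays in the same order, so Female E6.5 had 1 array there. The labels do not say if arrays numbered 1-1 and 1-2 come from one pool. The p-values therefore measure only the spread between arrays, and some of it may be technical.

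MicroRNAs are short RNAs that pair, mainly through their seed (bases 2 to 8), with messenger RNAs and lower the output of those messages. The miR-181 family is best known from mouse lymphocytes, where miR-181a sets how strongly the T cell receptor signals. The gonads of the chick are alike in both sexes when they form, and later become testes in ZZ males and an ovary in ZW females. In the GRCg7b gene table of RefSeq the chicken genes named for miR-181a and miR-181b are 4, in 2 pairs. MIR181A1 lies at chr8:2003508-2003611 and MIR181B1 at chr8:2003697-2003785, with 85 bases between them. MIR181A2 lies at chr17:10104804-10104894 and MIR181B2 at chr17:10106444-10106528, with 1549 bases between them. All 4 are annotated as miRNA genes. Genes named for other members, such as miR-181c, were not looked up. Since each pair holds a miR-181a and a miR-181b gene, neither probe tells which chromosome its RNA came from.

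The RNAs that the probes were made for show how close the family members are. They were read here as the reverse complement of the deposited probe sequences, 5′ to 3′, with the seed in capitals.
gga-miR-181a: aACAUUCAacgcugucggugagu
gga-miR-181b: aACAUUCAuugcugucgguggg
dre-miR-181c: cACAUUCAuugcugucgguggg
hsa-miR-181c: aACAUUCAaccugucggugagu
hsa-miR-181d: aACAUUCAuuguugucgguggguu
All 5 share the seed ACAUUCA, which is held by 5 of the 657 mature probes. Counted from 1 at the 5′ end, dre-miR-181c differs from gga-miR-181b only by A1C, outside the seed. The RNA of gga-miR-181b differs from that of gga-miR-181a by A9U, C10U and A21G and is 1 base shorter at its 3′ end. With 1 base between them, each of the 2 probes may also read the RNA of the other, which was not tested, so the 2 values should be taken as uncertain for either miRNA alone. Labelling used a Cy5 dye that attaches to guanine, per the labels' protocols. The RNAs for gga-miR-181a, gga-miR-181b and dre-miR-181c hold 6, 7 and 7 guanines, and levels are compared within a probe only.

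All 3 probes gave signal on every array. A probe was taken as above background where it passed a limit set by the 7 negative controls, their 95th percentile on that array. On chip 4011845 each member passed it on 18 of 18 arrays. The median over arrays was 3.97 times that limit for gga-miR-181a, 4.30 times for gga-miR-181b and 3.77 times for dre-miR-181c. The lowest ratio was 1.25, for gga-miR-181a on Male E5.5 replicate 2. Foreground intensity ran from 370.75 to 1148 for gga-miR-181a, from 428.25 to 1747.5 for gga-miR-181b and from 415.5 to 1297 for dre-miR-181c. On chip 50636 the 3 probes were also above the limit on 7 of 7 arrays, by smaller margins, with medians of 1.44, 1.72 and 1.77 times.

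The array carries a partner of each probe with 2 changed bases, which shows how far the signal depends on the full match. The partners read as follows, with the changed bases in capitals and positions counted from the 5′ end of the probe.
gga-miR-181a mismatch probe, changed by C7T and C13G: actcacTgacagGgttgaatgtt
gga-miR-181b mismatch probe, changed by C6T and C12G: cccacTgacagGaatgaatgtt
dre-miR-181c mismatch probe, changed by C6T and C12G: cccacTgacagGaatgaatgtg
No mismatch partner of the 3 was above the negative controls on any of the 25 arrays. The perfect match was the brighter of the pair on all 25 arrays for each of the 3. On chip 4011845 the median ratio of perfect match to mismatch was 5.59 for gga-miR-181a, 6.71 for gga-miR-181b and 6.10 for dre-miR-181c. On chip 50636 the medians were 2.37, 3.05 and 2.80. The hsa-miR-181d pair went the other way between the chips, with medians of 3.24 on chip 4011845 and 4.55 on chip 50636. No test was made between the chips, which also differed in groups and in scan exposure. As the partners of the 3 members lay within the negative controls, their ratios also follow the brightness of the match over background. The ratios therefore do not compare how specific a probe is on the 2 chips.

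**Figure D1:**
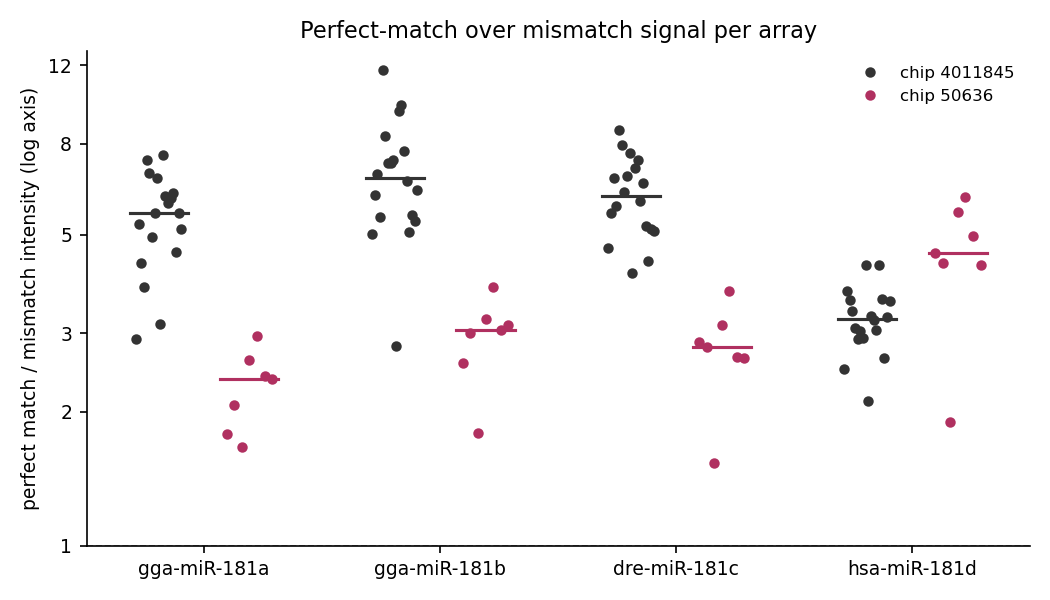
Ratio of perfect-match to mismatch foreground intensity (log axis) for the 3 members and hsa-miR-181d, 1 point per array, with the median as a line, on chip 4011845 (18 arrays) and chip 50636 (7 arrays). The 3 members have medians from 5.59 to 6.71 on chip 4011845 and from 2.37 to 3.05 on chip 50636, and every point lies above 1.

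Of the series as a whole, an array of chip 4011845 had between 51 and 177 mature probes over the limit, and one of chip 50636 had 76 to 229. Arrays of one group correlated over the mature probes at a median of 0.94 on the same chip (24 pairs) and 0.49 across chips (17 pairs). Female E5.5 replicate 1-2 on chip 50636 stood apart, with a median foreground of 454 and 180 mismatch probes over the limit. The median was 72 to 153 on the other arrays of its chip and at most 207 on chip 4011845. That array was scanned at an exposure of 2.0 s, and the others of chip 50636 at 0.1 to 0.5 s. For a check of tissue, 3 of 5 miR-202 probes, a miRNA known from chicken gonads, and 7 of 7 probes of mesenchymal miRNAs passed the filter on low signal on chip 4011845. Probes of other tissues passed that filter too, with 3 of 8 for neural miRNAs, 2 of 4 for red blood cells, 2 of 11 for epithelium and 1 of 2 for endothelium. The neural probes were over the limit in 31.9% of probe and array combinations, and the miR-202 probes in 38.9%. Probes for white blood cells (8), striated muscle (12) and liver (2) passed the limit on none of the 18 arrays. In RNA from whole pooled gonads, fewer cells that hold a miRNA and less of it per cell cannot be told apart.

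Levels are given from here on as background-corrected, quantile-normalised log2 intensities of chip 4011845, on which 1 unit is a doubling. Quantile normalisation gives the same value to probes of the same rank on different arrays, so some values repeat exactly. The gga-miR-181a level was 8.65, 9.56 and 9.23 in Male E5.5 (replicates 2, 3 and 6) and 8.99, 9.41 and 9.68 in Female E5.5 (replicates 3, 4 and 5). At E6.5 it was 9.22, 9.37 and 9.22 in males (replicates 2, 3 and 6) and 8.89 in the single female array. At E9.5 it was 9.62, 9.34, 9.51 and 9.33 in males and 9.51, 9.56, 9.34 and 9.34 in females (replicates 1-1, 1-2, 2 and 3 in each sex). The E9.5 arrays of both sexes fell in one narrow band, and the widest spread was in Male E5.5, where replicate 2 was the lowest of the 18. On Male E9.5 replicate 1-2 the 2 spots of this probe disagreed, with a deposited SD of 75.9% of their median, against a median of 7.55% over the 18 arrays.

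The gga-miR-181b level was 9.62, 9.30 and 9.62 in Male E5.5 and 9.34, 9.67 and 10.53 in Female E5.5. At E6.5 it was 10.16, 9.62 and 9.34 in males and 9.15 in the female array. At E9.5 it was 9.79, 9.95, 9.86 and 9.45 in males, against 8.81, 9.62, 8.93 and 9.74 in females. Female E5.5 replicate 5 was the highest array of the 18, and the female E9.5 arrays split into a low pair (replicates 1-1 and 2) and a high pair (replicates 1-2 and 3). The low pair lay in slide sector 4, and the high pair in sectors 1 (replicate 1-2) and 3 (replicate 3). Slide sector here is the array number, 1 to 4, in each array's scanner data, and arrays that share a number need not share a slide. The lowest arrays of Female E5.5 (replicate 3), Male E6.5 (replicate 6) and Male E9.5 (replicate 3) were in sector 4 too. Female E5.5 replicate 4, also in that sector, was in the middle of its group, and the 1 Female E6.5 array was in it too. Scan exposure also varied. It was 0.5 and 1.0 s for the low Female E9.5 pair and 2.0 and 1.0 s for the high pair. Female E5.5 replicate 3 had 1.0 s and replicates 4 and 5 had 2.0 s. Male E9.5 replicate 3 had 0.5 s and the others 1.0 or 2.0 s. In Male E6.5 the lowest array had 1.0 s and the highest 0.5 s. Sector and exposure were not tested apart. On Male E9.5 replicate 1-2 the SD between spots was 46.8% of the median for this probe also.

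The dre-miR-181c level was 9.51, 9.22 and 9.56 in Male E5.5 and 9.41, 9.61 and 9.86 in Female E5.5. At E6.5 it was 9.86, 9.41 and 9.26 in males and 9.42 in the female array. At E9.5 it was 9.42, 9.42, 9.56 and 9.26 in males and 8.73, 9.34, 8.85 and 9.15 in females. The same female E9.5 arrays, replicates 1-1 and 2, both in slide sector 4, were the lowest for this probe as for gga-miR-181b. The lowest arrays of Female E5.5 (replicate 3), Male E6.5 (replicate 6) and Male E9.5 (replicate 3) were again those in sector 4 named for gga-miR-181b. The same arrays were the lowest of their groups for gga-miR-181a, narrowly in Male E6.5 (9.221 beside 9.225) and Male E9.5 (9.334 beside 9.341). In Female E9.5 gga-miR-181a did not split so, with 9.51 and 9.34 in sector 4. For hsa-miR-181d, Female E5.5 replicate 3 (8.64) and Male E9.5 replicate 3 (8.63) were the highest of their groups. Its lowest Female E9.5 arrays were those in sector 4 (8.172 and 8.174). Here too sector and exposure were not tested apart. The spots of dre-miR-181c agreed on every array, with an SD of at most 13.2% of their median.

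**Figure D2:**
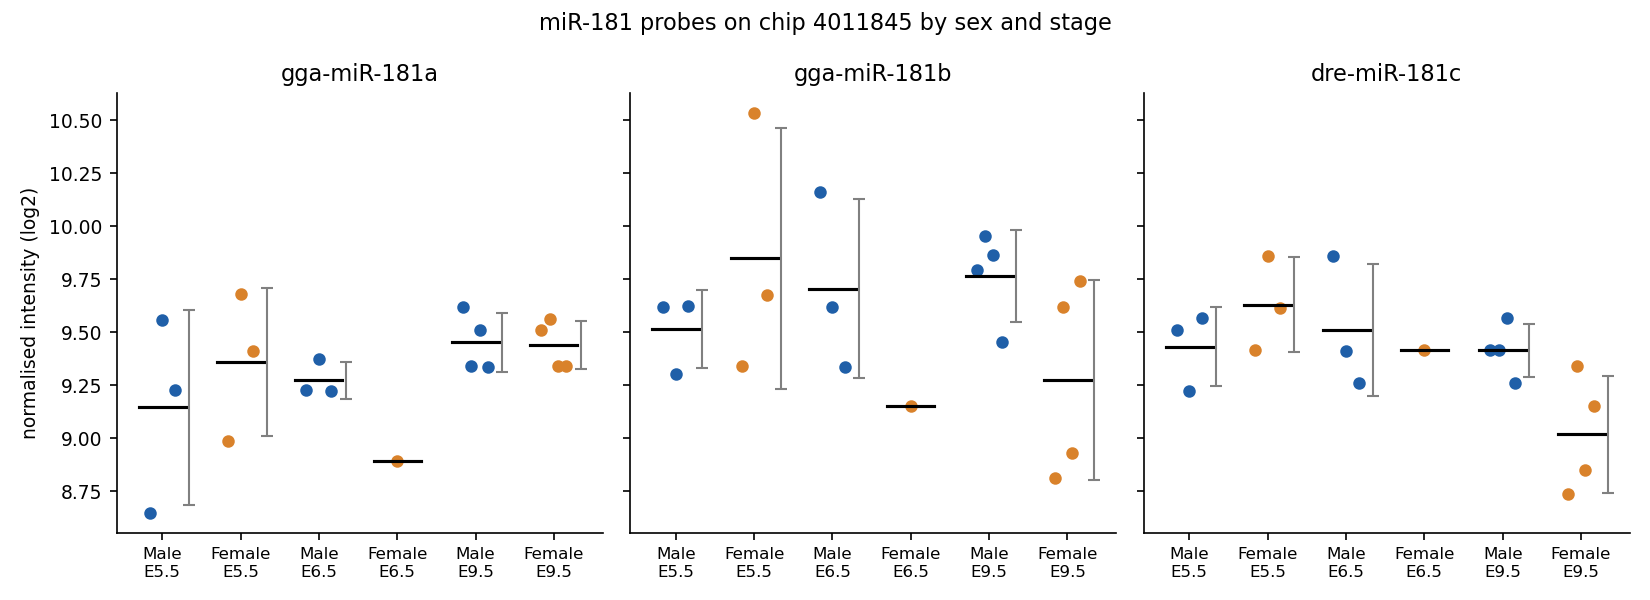
Normalised log2 intensity of the 3 probes on chip 4011845, 1 point per array, by stage with males (blue) left of females (orange), the group mean as a black line and the SD as a grey bar (Female E6.5 has 1 array and no SD). The dre-miR-181c points of Female E9.5 run from 8.73 to 9.34, below the Female E5.5 points, which start at 9.41.

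The group means of each probe can be put in order, but few steps of the order exceed the spread between arrays. For gga-miR-181a the order from the top was Male E9.5 (9.45), Female E9.5 (9.44), Female E5.5 (9.36), Male E6.5 (9.27), Male E5.5 (9.14) and Female E6.5 (8.89). Its spread within groups was an SD of 0.26, and no neighbours in the order were farther apart than that. For gga-miR-181b the order was Female E5.5 (9.85), Male E9.5 (9.76), Male E6.5 (9.71), Male E5.5 (9.51), Female E9.5 (9.27) and Female E6.5 (9.15), with no step above its SD of 0.41. For dre-miR-181c it was Female E5.5 (9.63), Male E6.5 (9.51), Male E5.5 (9.43), Female E6.5 (9.42), Male E9.5 (9.41) and Female E9.5 (9.02). Only the last step, between Male E9.5 and Female E9.5, was above its SD of 0.23. The spread of gga-miR-181a ranked 18th from the smallest and that of dre-miR-181c 8th among the 163 probes tested, whose median SD was 0.42. These 2 are thus among the steadier of the tested probes, as is hsa-miR-181d (SD of 0.22, 7th). The members are also bright, with mean levels ranked 19th (gga-miR-181a), 12th (gga-miR-181b) and 18th (dre-miR-181c) from the top of the 163. Spread was not compared among probes of like brightness.

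The first question of the design is whether the sexes differ, and it was asked at each stage with limma over the 163 probes that passed the negative-control limit on at least 3 of the 18 arrays, all 3 members among them. At E9.5, when gonads had been sexed by shape, gga-miR-181b averaged 9.76 ± 0.22 in males and 9.27 ± 0.47 in females (SD, n = 4 each). The difference was 0.49 ± 0.28 (SE), or 1.40 times the female level, with a 95% interval from -0.11 to 1.09 and a limma adjusted p of 0.794. The dre-miR-181c probe averaged 9.41 ± 0.12 in males and 9.02 ± 0.28 in females (SD, n = 4 each), a difference of 0.39 ± 0.20 (SE) with an interval from -0.03 to 0.82 and the same adjusted p. For gga-miR-181a the means were 9.45 ± 0.14 and 9.44 ± 0.11 in males and females, and the difference of 0.01 ± 0.21 (SE) had an interval from -0.44 to 0.46. A fit blocked by sector gave smaller E9.5 differences, 0.30 ± 0.20 (SE) for gga-miR-181b and 0.31 ± 0.18 for dre-miR-181c. For gga-miR-181a that fit gave -0.037 ± 0.23 (SE). Males and females overlapped for all 3, while 13 of 163 tested probes (7.98%) did not overlap, and 0 of the 3 were called at an adjusted p under 0.05, against 0% of all tested probes (0 of 163). At an unadjusted limma p under 0.05 there were 11 of 163 probes (6.75%) and no member. The median difference of the 3 members was 0.39, with gga-miR-181b and dre-miR-181c, which differ by 1 base, counted apart. That of all tested probes was 0.01 with quartiles of -0.22 and 0.23.

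At E6.5 the comparison rests on 3 male arrays and 1 female array, which was assumed to vary like the other groups. The male minus female difference was 0.38 ± 0.35 (SE) for gga-miR-181a, 0.55 ± 0.46 for gga-miR-181b and 0.10 ± 0.33 for dre-miR-181c. With the slide sector as a block these were 0.27, 0.10 and -0.12. The female array was below all 3 male arrays for gga-miR-181a and gga-miR-181b and inside their range for dre-miR-181c. Of all tested probes 77 of 163 (47.2%) had the female array outside the male range. No member was called (limma adjusted p from 0.689 to 0.866), nor was any tested probe (0%), and 10 of 163 (6.13%) had an unadjusted limma p under 0.05. The median over all tested probes was itself 0.25, with quartiles of -0.18 and 0.52.

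At E5.5, when embryos had been sexed by PCR, the reported differences were below 0, but for gga-miR-181a and gga-miR-181b the sign did not hold. The male minus female difference was -0.21 ± 0.25 (SE) for gga-miR-181a, -0.33 ± 0.33 for gga-miR-181b and -0.20 ± 0.23 for dre-miR-181c. With the replicate number as a block they were 0.26 for gga-miR-181a and 0.18 for gga-miR-181b. Of the Female E5.5 replicate numbers only 3 occurs in another group of the chip, so the female level in that fit rests on replicate 3 alone. Without Male E5.5 replicate 2 the gga-miR-181a value was 0.035, and without Female E5.5 replicate 5 that of gga-miR-181b was 0.0068. All 3 had a limma adjusted p of 0.918, and the male and female arrays overlapped for each, against 7 of 163 tested probes (4.29%) that did not. Again 0 of 163 probes were called (0%), with 3 of 163 (1.84%) at an unadjusted limma p under 0.05. The median over all tested probes was -0.08.

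The change of the sex difference between the stages was tested directly. From E5.5 to E9.5 the male minus female difference moved by 0.82 ± 0.43 (SE) for gga-miR-181b, with a 95% interval from -0.09 to 1.74. That value was 0.48 without Female E5.5 replicate 5, and the other settings gave 0.31 (replicate block) to 1.15 (75th percentile scaling over all mature probes). It moved by 0.59 ± 0.31 for dre-miR-181c, with an interval from -0.06 to 1.25, and by 0.23 ± 0.32 for gga-miR-181a, with an interval from -0.46 to 0.91. All 3 had a limma adjusted p of 0.989, and no probe on the chip was called (0%), with 3 of 163 (1.84%) at an unadjusted limma p under 0.05. The median of all tested probes was 0.03, with quartiles of -0.21 and 0.33. For the 3 members it was 0.59, with gga-miR-181b and dre-miR-181c, which differ by 1 base, counted apart.

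The second question is whether the family changes as the gonads develop. In males no step was called for any member. From E5.5 to E6.5 the later minus earlier difference was 0.13 ± 0.25 (SE) for gga-miR-181a, 0.19 ± 0.33 for gga-miR-181b and 0.08 ± 0.23 for dre-miR-181c, and 0 of 163 probes were called (0%; 3 at an unadjusted limma p under 0.05, 1.84%). From E6.5 to E9.5 it was 0.18 ± 0.23, 0.06 ± 0.31 and -0.10 ± 0.22, where 2 of 163 probes (1.23%) were called. Over the whole interval, E9.5 minus E5.5, it was 0.31 ± 0.23 for gga-miR-181a, 0.25 ± 0.31 for gga-miR-181b and -0.02 ± 0.22 for dre-miR-181c, where 10 of 163 probes (6.13%) were called higher and 1 (0.613%) lower, 11 in all (6.75%). The arrays of the compared groups overlapped for every member in the 3 steps, while 2.45%, 10.4% and 17.8% of tested probes did not overlap. In the last 2 steps 12.3% and 20.2% of tested probes had an unadjusted limma p under 0.05, with no member among them. For that longest interval the 95% limits were -0.18 and 0.79 for gga-miR-181a, -0.40 and 0.90 for gga-miR-181b and -0.48 and 0.44 for dre-miR-181c. The gga-miR-181a value ran from 0.056 without Male E5.5 replicate 2 to 0.52 without Male E5.5 replicate 3.

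In females no member passed the threshold between E5.5 and E9.5, and dre-miR-181c came nearest to it. The dre-miR-181c probe averaged 9.02 ± 0.28 in Female E9.5 (SD, n = 4) and 9.63 ± 0.22 in Female E5.5 (SD, n = 3). The difference was -0.61 ± 0.22 (SE), or 0.65 times the E5.5 level, with a 95% interval from -1.07 to -0.15, an unadjusted limma p of 0.0126 and an adjusted p of 0.0851. Its 4 E9.5 arrays lay below its 3 E5.5 arrays, but so separated were 62 of 163 tested probes (38.0%) in this comparison, in one direction or the other. The gga-miR-181b probe averaged 9.27 ± 0.47 in Female E9.5 (SD, n = 4) and 9.85 ± 0.62 in Female E5.5 (SD, n = 3). Its difference was of like size, -0.57 ± 0.31 (SE), but the arrays overlapped and the limma adjusted p was 0.200. It was -0.23 without Female E5.5 replicate 5 and -0.83 without Female E5.5 replicate 3. For gga-miR-181a the difference was 0.08 ± 0.23 with an interval from -0.40 to 0.56. Of the 163 probes 11 (6.75%) were called higher and 2 (1.23%) lower, 13 in all (7.98%), and none was a member, while 42 (25.8%) had an unadjusted limma p under 0.05, dre-miR-181c among them. Whether the changes of the 3 probes differ from each other was not tested.

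The dre-miR-181c value passed the threshold in 2 of the 12 alternatives tried for it. With all 25 arrays and the chip as a term in the fit it was -0.60 ± 0.17 (SE) with a limma adjusted p of 0.0162, and with the slide sector as a block it was -0.66 ± 0.19 with an adjusted p of 0.0480. The fit with the chip term called 34 of 213 tested probes, and over all alternatives the number called in this comparison ran from 9 to 34. In the other 10 alternatives, and with any 1 array of the 2 groups left out, the dre-miR-181c value stayed negative and was not called. With the replicate number as a block it was -0.50 ± 0.39 with a limma adjusted p of 0.475. In that fit the Female E5.5 level rests on replicate 3 alone, as numbers 4 and 5 occur in no other group of the chip.

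Marker probes of other cell types also differed between these groups. The summed normalised intensity of the 4 red blood cell probes (miR-451 and miR-144) ran from 854 to 1664 in Female E9.5 and from 403 to 453 in Female E5.5. Of its 2 tested probes both were called higher at E9.5, dre-miR-451 by 1.73 ± 0.33 (SE, limma adjusted p = 0.00337) and hsa-miR-451 by 1.68 ± 0.41 (adjusted p = 0.0146). The sum of the 7 mesenchymal probes (miR-199, miR-214, miR-143 and miR-145) ran from 2743 to 4331 in Female E9.5 and from 1477 to 2286 in Female E5.5. Of these 7, all tested, 3 were called higher at E9.5 and 0 lower. The called ones were dre-miR-199* (1.24 ± 0.26, SE, limma adjusted p = 0.00804), dre-miR-143 (1.08 ± 0.26, adjusted p = 0.0138) and gga-miR-199a (1.00 ± 0.28, adjusted p = 0.0340). The list did not go one way: its differences ran from -0.81 (dre-miR-214, adjusted p = 0.173) to 1.24, with a median of 1.00. Of the other lists, 1 of 2 tested epithelial probes was called lower (gga-miR-205b, -1.37 ± 0.30, adjusted p = 0.00869), and none was called of 3 gonad probes (median -0.43), 3 neural probes (median -0.83) and 1 endothelial probe (0.46). The part of these differences in the dre-miR-181c value was not tested.

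The shorter steps in females turn on the 1 array of Female E6.5. From E5.5 to E6.5 the later minus earlier difference was -0.47 ± 0.35 (SE) for gga-miR-181a, -0.70 ± 0.46 for gga-miR-181b and -0.21 ± 0.33 for dre-miR-181c. No probe was called (0%; 6 of 163 at an unadjusted limma p under 0.05, 3.68%), and the median over all tested probes was -0.27. From E6.5 to E9.5 the difference was 0.55 ± 0.34 for gga-miR-181a, 0.12 ± 0.45 for gga-miR-181b and -0.40 ± 0.32 for dre-miR-181c, with limma adjusted p from 0.252 to 0.867. In that step 10 of 163 probes (6.13%) were called higher and 5 (3.07%) lower, 15 in all (9.20%), none of them a member, and 51 (31.3%) had an unadjusted limma p under 0.05, also with no member. In each of these 2 steps the single array lay outside the range of the other group for 112 of 163 tested probes (68.7%), among them gga-miR-181a in both, gga-miR-181b in the E6.5 minus E5.5 step and dre-miR-181c in the E9.5 minus E6.5 step. With all 25 arrays in the fit and no chip term, the E9.5 minus E6.5 value of gga-miR-181a was 1.25 ± 0.42 (SE, limma adjusted p = 0.0327), and with the chip as a term it was 0.53 ± 0.22 (adjusted p = 0.0831). The fit with no chip term called 59 of 213 tested probes in this step.

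**Figure D3:**
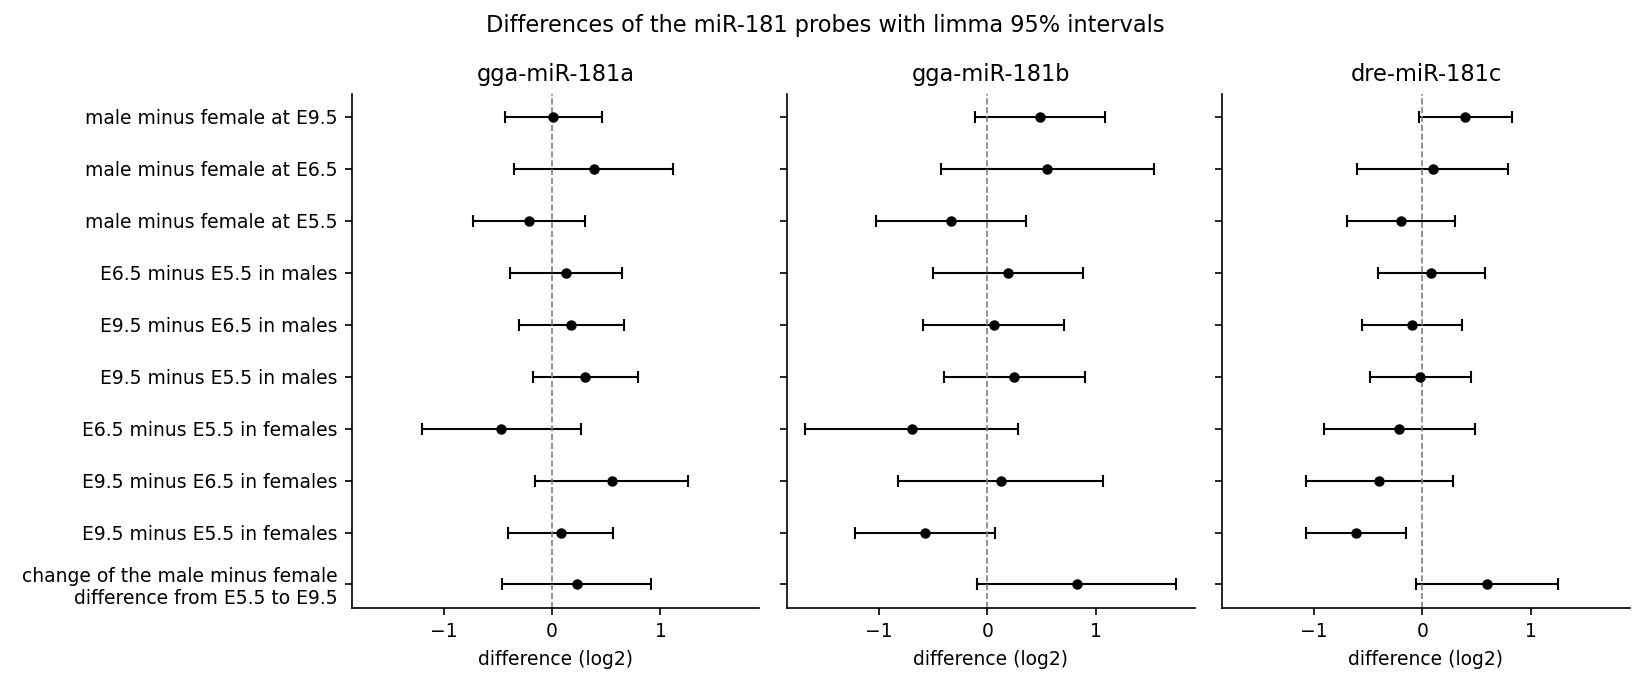
Difference in normalised log2 intensity of the 3 probes in each of the 10 comparisons on chip 4011845, with limma's 95% interval as a bar and 0 as a dashed line. The interval of dre-miR-181c for E9.5 minus E5.5 in females (-1.07 to -0.15) is the one of 30 that leaves out 0, and no comparison passed the threshold after adjustment over the 163 probes.

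The 2 probes that differ by 1 base followed each other from array to array. Over the 18 arrays gga-miR-181b and dre-miR-181c had a Pearson r of 0.84, and of 0.91 after group means were taken out (17 arrays, without the single Female E6.5 array). The median over all pairs of tested probes was near 0 on both counts (-0.004 and 0.006). The hsa-miR-181d probe, which also carries the sequence of gga-miR-181b with 1 substitution and 2 added bases, had an r of 0.36 with gga-miR-181b and 0.40 with dre-miR-181c. With gga-miR-181a the values were 0.25 for gga-miR-181b and -0.09 for dre-miR-181c, and 0.22 and 0.11 within groups. These are descriptions: the probes share the arrays, their normalisation and, in the case of gga-miR-181b and dre-miR-181c, nearly all of their sequence.

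**Figure D4:**
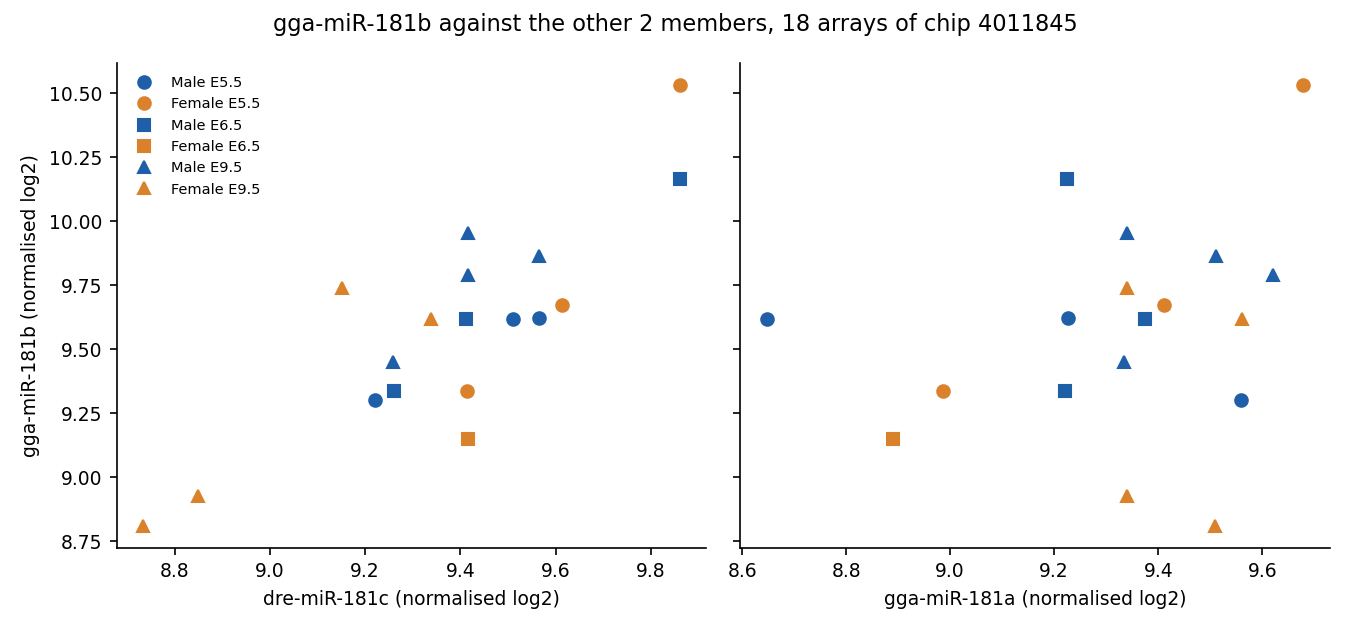
Normalised log2 intensity of gga-miR-181b against dre-miR-181c (left) and gga-miR-181a (right) on the 18 arrays of chip 4011845, 1 point per array, with colour for sex and shape for stage. The left panel has r = 0.84 and the right r = 0.25.

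Outside the family, the tested probes with the patterns most like each member over the 18 arrays, out of 159, were taken by Pearson r. For gga-miR-181a they were dre-miR-145 (0.76), dre-miR-15b (0.75), rno-miR-363-3p (0.75), hsa-miR-145 (0.74) and an array maker's candidate probe related to dre-miR-146b (0.71), against a median r of 0.21 over the 159. For gga-miR-181b they were dre-miR-456 (0.80), gga-miR-222a (0.79), dre-miR-138 (0.78), mmu-miR-292-5p (0.67) and gga-miR-20b (0.61), against a median of 0.01. For dre-miR-181c they were gga-miR-222a (0.75), hsa-miR-210 (0.71), dre-miR-210 (0.71), mmu-miR-292-5p (0.69) and dre-miR-456 (0.68), against a median of -0.02. The lists of gga-miR-181b and dre-miR-181c share gga-miR-222a, dre-miR-456 and mmu-miR-292-5p, and neither shares a probe with the list of gga-miR-181a.

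Of the 4 other probes named for the family, 1 gave clear signal on chip 4011845. The hsa-miR-181d probe, whose RNA differs from that of gga-miR-181b by C12U and by 2 added bases at the 3′ end, was above the negative controls on all 25 arrays. On chip 4011845 its level ran from 8.05 to 8.74 over the 18 arrays, and it was not called in any of the 10 comparisons. Its E9.5 minus E5.5 difference in females was -0.06 ± 0.21 (SE, limma adjusted p = 0.840), beside -0.57 for gga-miR-181b. The RNA of the hsa-miR-181c probe lacks 1 inner base of that of gga-miR-181a, right after the first 10 bases, and is otherwise the same. The hsa-miR-181c probe was above the negative controls on 2 of 18 arrays, both Female E9.5 (replicates 1-1 and 1-2), and on 0 of 7 of chip 50636. The probes gga-miR-213 and dre-miR-213, named for the opposite strand of the miR-181a hairpin, were above the limit on 0 of 18 arrays of chip 4011845. On chip 50636 gga-miR-213 was above it on 0 of 7 arrays and dre-miR-213 on 3 of 7. A value under the limit says only that no signal was told from the negative controls.

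Chip 50636 held 7 arrays of E5.5 and E6.5 and was read after normalisation of all 25 arrays together. The gga-miR-181a level was 7.71 and 7.75 in Male E5.5 and 8.69 in Female E5.5, and 7.93 and 7.80 in Male E6.5 against 7.78 and 7.59 in Female E6.5. The gga-miR-181b level was 8.28 and 8.43 in Male E5.5 and 9.08 in Female E5.5, and 8.54 and 8.37 in Male E6.5 against 8.37 and 8.31 in Female E6.5. The dre-miR-181c level was 8.47 and 8.10 in Male E5.5 and 8.37 in Female E5.5, and 8.40 and 8.31 in Male E6.5 against 8.06 and 7.85 in Female E6.5. For these 3 probes all of the 7 arrays read lower than the arrays of chip 4011845 in the same group. The Female E5.5 array was the highest of the 7 for gga-miR-181a and gga-miR-181b but not for dre-miR-181c. The hsa-miR-181d probe went the other way on this scale, from 8.96 to 9.93 on chip 50636 and from 7.98 to 8.62 on chip 4011845.

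With chip 50636 fitted on its own, 4 differences passed the threshold, and all 4 rest on that 1 Female E5.5 array, the one that stood apart. The male minus female difference at E5.5 was -0.84 ± 0.14 (SE) for gga-miR-181a, with a limma adjusted p of 0.0224, and -0.55 ± 0.13 for gga-miR-181b, with an adjusted p of 0.0488. The E6.5 minus E5.5 difference in females was -0.87 ± 0.14 for gga-miR-181a, with an adjusted p of 0.0169, and -0.56 ± 0.13 for gga-miR-181b, with an adjusted p of 0.0329. In that fit 18 of 116 tested probes (15.5%) were called between the sexes at E5.5 and 36 of 116 (31.0%) between E6.5 and E5.5 females. These differences have the sign reported on chip 4011845, where none was called. There the sign of the E5.5 sex differences did not hold in every setting, and the E6.5 minus E5.5 step in females rests on 1 Female E6.5 array. In the fit of chip 50636 the lone Female E5.5 array was assumed to vary like the other groups. Every array of chip 50636 is numbered 1-1 or 1-2, which may come from one pool. The SE and p-values of this fit may therefore measure technical spread only.

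**Figure D5:**
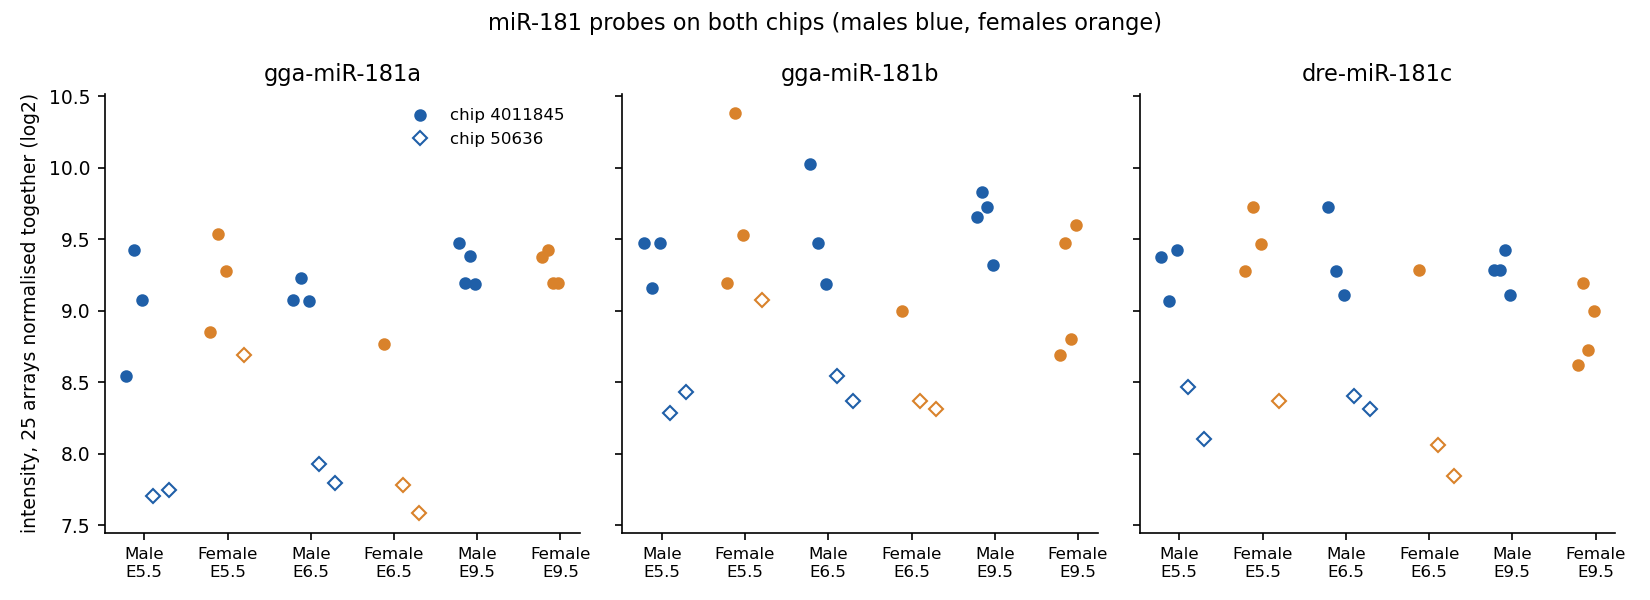
Log2 intensity of the 3 probes after normalisation of all 25 arrays together, 1 point per array, by stage with males (blue) left of females (orange), filled circles for chip 4011845 and open diamonds for chip 50636. Within each group that has both, the diamonds lie below the circles for all 3 probes, and the Female E5.5 diamond is the highest one for gga-miR-181a (8.69) and gga-miR-181b (9.08).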

How the data were processed

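Small RNA (under 200 nt, 500 ng an array) was labelled with Cy5, per the labels' protocols. The authors deposited scanner tables that give each probe's foreground intensity, as the median of its spots, and the SD between spots, and a series table of linear intensity values, used as an alternative. The scanner software and the making of the series table are not given in the sources used here. The 18 arrays of chip 4011845 were fitted alone. Foreground medians were corrected with normexp (offset 50) over all spots, put on the log2 scale and quantile-normalised over the 657 mature probes. Probes that passed the limit set by the 7 negative controls (95th percentile of each array) on at least 3 arrays, 163 in all, were tested with limma 3.58.1 (R 4.3.3) on 6 group means, with Benjamini-Hochberg adjustment over all 163 and calls at an adjusted p under 0.05. No arrays held identical values. The quantile normalisation and fit were also run on simulated data with independent noise and no chip, sector or exposure effect. That run says nothing about such effects.

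The members, the marker lists and the comparisons were chosen with earlier results of these data known. In every comparison the 3 members were named. Beyond them the text names every other miR-181 or miR-213 probe, the 5 most alike probes per member, and marker probes. Replicate numbers were checked on deviations from group means: same-numbered arrays correlated at 0.136 to 0.440 between Male E9.5 and Female E9.5 (4 pairs) and at 0.332 to 0.759 between Male E6.5 and Male E5.5 (3 pairs). Arrays with different numbers were not correlated as a reference, so these values cannot decide if the numbers pair those groups. Between Male E9.5 and the earlier male groups the 2 shared numbers gave 0.519 and -0.095 with Male E6.5 and 0.546 and -0.089 with Male E5.5. Other groups were not checked in this way. The number of arrays limits the precision. Alternatives were the background correction, the scaling, the filter, the arrays fitted, the replicate block, merged replicates, the slide sector and leaving out each array.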

Additional observations from a re-analysis of the deposited data

How the results depend on the processing

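The 30 differences of the 3 members were recomputed 372 times under the other settings and 195 times with 1 array left out. Of the 372 values, 341 kept their sign and stayed short of the threshold, 24 changed sign and 7 passed the threshold with their sign kept. Of the 195, 20 changed sign and none was called. The cause of these moves was not tested. The called values were -0.84 (gga-miR-181a, limma adjusted p = 0.0224) and -0.55 (gga-miR-181b, 0.0488) for male minus female at E5.5, and -0.87 (gga-miR-181a, 0.0169) and -0.56 (gga-miR-181b, 0.0329) for E6.5 minus E5.5 in females, all on chip 50636 alone with Female E5.5 replicate 1-2 as the only array of its group. The others were 1.25 for gga-miR-181a, E9.5 minus E6.5 in females, with 25 arrays and no chip term (0.0327), and -0.60 (0.0162) and -0.66 (0.0480) for dre-miR-181c, E9.5 minus E5.5 in females, with 25 arrays and a chip term and with the slide sector as a block. With 1 array left out, that dre-miR-181c value ran from -0.72 to -0.49 (lowest adjusted p 0.0918). For E9.5 minus E6.5 in females, the fit of 25 arrays with no chip term called 59 of 213 tested probes. For E9.5 minus E5.5 in females, the fit with a chip term called 34 of 213.

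Signs changed as follows, all without a call. With 75th percentile scaling over probes above the controls on every array: -0.18 for dre-miR-181c, male minus female at E6.5, and in females 0.0033 for dre-miR-181c (E6.5 minus E5.5), -0.29 for gga-miR-181b (E9.5 minus E6.5) and -0.027 for gga-miR-181a (E9.5 minus E5.5). With that scaling over all mature probes: for dre-miR-181c in males 0.097 (E9.5 minus E6.5) and 0.15 (E9.5 minus E5.5), and in females -0.033 for gga-miR-181b (E9.5 minus E6.5) and -0.25 for gga-miR-181a (E9.5 minus E5.5). With the sector block: -0.037 for gga-miR-181a at E9.5 and -0.12 for dre-miR-181c at E6.5 (male minus female), in males -0.019 for gga-miR-181b (E9.5 minus E6.5) and 0.034 for dre-miR-181c (E9.5 minus E5.5), and -0.21 for gga-miR-181b (E9.5 minus E6.5) in females. With 25 arrays and no chip term, dre-miR-181c gave 0.31 (E9.5 minus E6.5) and 0.39 (E9.5 minus E5.5) in males and 0.49 (E9.5 minus E6.5) in females. With 25 arrays and a chip term: -0.021 for gga-miR-181b (E9.5 minus E6.5) and -0.064 for gga-miR-181a (E9.5 minus E5.5) in females. The series table gave 0.027 for dre-miR-181c, E9.5 minus E5.5 in males.

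With the replicate number as a block no member was called. In that fit the Female E5.5 level rests on replicate 3 alone, as numbers 4 and 5 occur in no other group of the chip. Male minus female at E5.5 turned to 0.26 for gga-miR-181a and 0.18 for gga-miR-181b, E9.5 minus E6.5 in males to -0.030 for gga-miR-181b, E6.5 minus E5.5 in females to 0.12 for gga-miR-181a, and the change of the sex difference to -0.25 for gga-miR-181a. At E9.5, where males and females carry the same replicate numbers, the block left the differences as they were, with 1 probe called instead of 0.

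With single arrays left out, signs changed within these ranges. Male minus female ran from -0.042 to 0.055 for gga-miR-181a at E9.5, from -0.080 to 0.22 for dre-miR-181c at E6.5 (below 0 without Male E6.5 replicate 2), and at E5.5 from -0.42 to 0.035 for gga-miR-181a (above 0 without Male E5.5 replicate 2) and from -0.59 to 0.0068 for gga-miR-181b (above 0 without Female E5.5 replicate 5). E6.5 minus E5.5 in males ran from -0.12 to 0.34 for gga-miR-181a (below 0 without Male E5.5 replicate 2), and from -0.040 to 0.37 for gga-miR-181b and -0.099 to 0.21 for dre-miR-181c (lowest without Male E6.5 replicate 2). E9.5 minus E6.5 in males ran from -0.12 to 0.30 for gga-miR-181b and -0.23 to 0.079 for dre-miR-181c, and E9.5 minus E5.5 in males from -0.13 to 0.046 for dre-miR-181c. In females gga-miR-181b, E9.5 minus E6.5, ran from -0.028 to 0.28 and gga-miR-181a, E9.5 minus E5.5, from -0.10 to 0.23. The change of the sex difference of gga-miR-181a ran from -0.022 to 0.43.

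The counts over all tested probes moved more. Between the sexes they were 0 to 3 at E9.5, 0 to 13 at E6.5 and 0 to 18 at E5.5, against 0 reported. From E5.5 to E6.5 they were 0 in males and 0 to 36 in females, against 0. From E6.5 to E9.5 they were 0 to 10 against 2 in males and 0 to 59 against 15 in females, where leaving out Female E9.5 replicate 1-1, 1-2 or 3 gave 0. From E5.5 to E9.5 they were 9 to 28 against 11 in males and 9 to 34 against 13 in females, and leaving out 1 array gave 6 to 18 and 7 to 17. On chip 50636 the members lay closer to the negative controls, so their differences there rest on less signal.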
